A study of Mus musculus with 4 samples.

Results

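Bmp and Gdf ligands are secreted growth factors of the Tgf-beta superfamily. The genes Bmp2, Bmp3, Bmp4, Bmp5, Bmp6, Bmp7, Gdf5, Gdf6, Gdf7 and Gdf10 were followed in the mesenchyme of mouse molar tooth germs at embryonic day 14. These 10 genes were taken by name from the 22072 genes in the deposited tables, and each was represented by 1 RefSeq transcript. Values are FPKM, fragment counts scaled to transcript length and to library size, so levels of different genes can be compared within a library.

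The groups were Msx1-/- (mutant) upper molars, Msx1+/- (control) upper molars, Msx1-/- lower molars and Msx1+/- lower molars. The product of Msx1 is a transcription factor with a homeodomain that marks dental mesenchyme, and the controls also carry 1 mutant copy, although the series title calls the comparison one with wild type. The labels do not name the Msx1 allele and give the strain as a mixed background. Mesenchyme was cut from frozen sections by laser capture, and 3 pairs of mutant and control tissue went into the pools. Each group has 1 library, so no value has a replicate error, and it is not stated if the jaws share embryos.

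As background, a Bmp precursor is cut by furin-type proteases, and the mature dimer binds type I and type II receptor kinases that phosphorylate Smad1, Smad5 and Smad9. By sequence the ligands fall into the subgroups of Bmp2 with Bmp4, of Bmp5, Bmp6 and Bmp7, of Bmp3 with Gdf10, and of Gdf5, Gdf6 and Gdf7. In the developing tooth Bmp4 passes between epithelium and mesenchyme, and its mesenchymal expression at the bud stage is known to need Msx1. Bmp2 and Bmp7 are best known there from the epithelial enamel knot.

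Transcripts were covered by 395 and 410 megabases in mutant and control upper molars, and by 264 and 324 megabases in mutant and control lower molars. All 14 markers listed for dental mesenchyme passed a mean of 1 FPKM. Msx1 itself was at 126 FPKM in mutant and 170 FPKM in control upper molars, and at 85.9 FPKM in mutant and 184 FPKM in control lower molars. Since the allele is not named, that level does not check the genotype labels. Differences below are on the log2(FPKM + 1) scale, mutant minus control within a jaw, and a gene is called higher or lower where the difference is at least 1 in size. Over the 10537 genes averaging 1 FPKM or more, the median difference was -0.03 for upper molars and -0.39 for lower molars. The mutant lower library was thus low over most genes, and values relative to those medians are given where this matters. Of the 14 dental mesenchyme markers, 2 (Dlx2 and Prrx2) were called lower in both jaws, against 1.59% of all genes. In lower molars 5 were called lower, Msx1 among them, against 9.43% of all genes. None was called higher in either jaw. The median difference of the 14 was 0.08 in upper and -0.62 in lower molars. Of the 10 ligands, 7 passed the mean of 1 FPKM, and Bmp5, Gdf5 and Gdf6 did not. In bulk tissue, fewer cells of a type and less RNA per cell cannot be told apart.

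As deposited, the ligand transcripts together were less abundant in the mutant libraries, and their make-up differed. Summed over the 10 genes, ligand FPKM was 41.0 in mutant and 60.8 in control upper molars. In lower molars the sum was 39.4 in mutant and 58.3 in control. Mutant over control, the sum stood at 0.674 in upper and 0.676 in lower molars as deposited. After rescaling they were 0.678 for upper and 0.907 for lower molars by median of ratios, 0.737 and 0.974 by upper quartile, and 0.710 and 0.950 by total. The lower sum thus depends on the scaling and comes close to equal. Shares within a library do not depend on it. Bmp4 was the most abundant of the 10 in every library. It made up 42.9% of the sum in mutant and 41.0% in control upper molars, and 51.3% in mutant and 59.6% in control lower molars.

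Below Bmp4 the order changed with genotype and jaw. In control upper molars Bmp3 came second with 20.4% of the sum, followed by Gdf7 with 18.2%. Bmp3 was also second in control lower molars, with 14.5%, followed by Bmp6 with 13.2%. In mutant upper molars Gdf10 came second with 16.0%, and Bmp3 held 2.93%. In mutant lower molars Gdf7 came second with 18.6%, and Bmp3 held 1.64%.

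**Figure D1:**
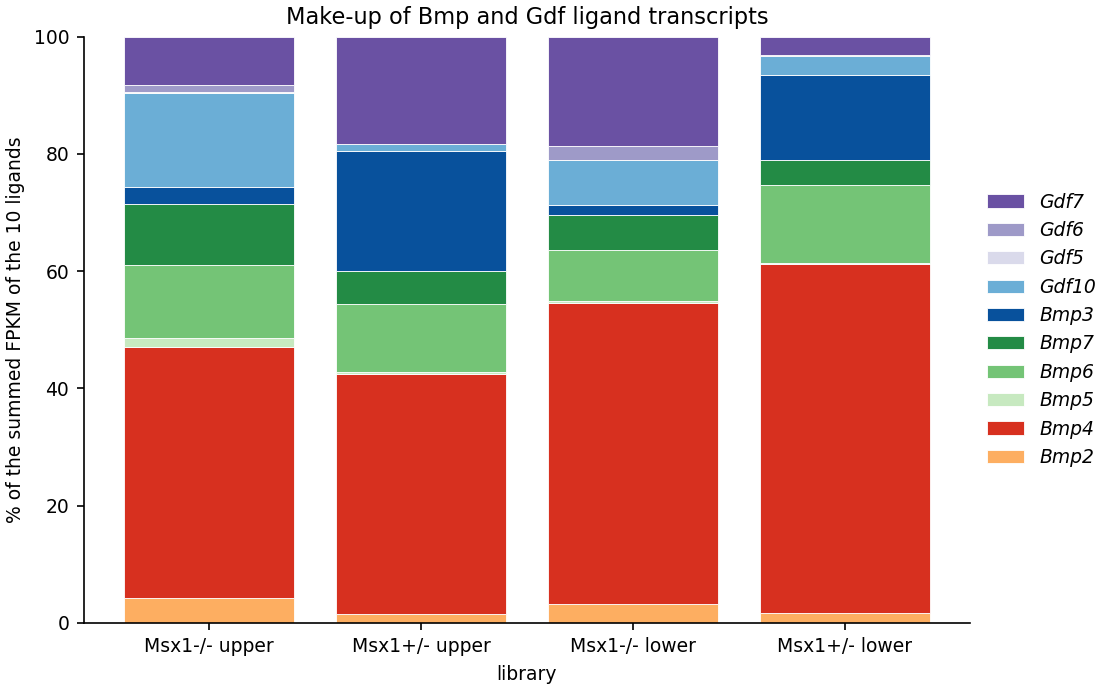
Stacked bars show the percent of the summed FPKM of the 10 ligand genes that each gene held in each of the 4 libraries (1 library per bar). Bmp4 (red) held between 41.0% and 59.6%, while Bmp3 (dark blue) held 2.93% and 1.64% in the Msx1-/- bars and 20.4% and 14.5% in the Msx1+/- bars.

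Bmp3 was the ligand called lower in the mutant in both jaws. Bmp3 protein is unusual in its family because it opposes the action of other Bmps. The gene lies on chromosome 5, 99283458 to 99309979 (mm9), 61.1 megabases from Msx1 on the same chromosome. It had 1.20 FPKM in mutant and 12.4 FPKM in control upper molars. In lower molars it had 0.647 FPKM in mutant and 8.44 FPKM in control. Both mutant libraries were far below both control libraries, and the genotypes did not overlap. The FPKM of control over mutant was 10.3 in upper and 13.0 in lower molars.

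The log2 difference of Bmp3 was -2.61 for upper molars and -2.52 for lower molars, or -2.58 and -2.13 relative to the median gene. Among the 10537 genes its mean difference ranked 24 from the most negative. The values under the other scalings were between -2.58 and -2.49 in upper and between -2.27 and -2.21 in lower molars. Aligned bases, coverage times transcript length, numbered 4062 in mutant and 40397 in control upper molars. They numbered 1860 in mutant and 21330 in control lower molars, so the low mutant values still rest on some sequence.

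Gdf10, the closest relative of Bmp3 and also called Bmp3b, went the other way. The gene lies on chromosome 14, 34736773 to 34748468 (mm9). It had 6.56 FPKM in mutant and 0.742 FPKM in control upper molars, and 3.03 FPKM in mutant and 1.92 FPKM in control lower molars. Both mutant values were above both control values. The difference of 2.12 in upper molars was called, and that of 0.46 in lower molars was not. Under the other scalings the lower difference was between 0.77 and 0.85, still under the threshold. In upper molars its difference ranked 18 from the most positive among all genes.

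The ratio of the pair was therefore turned round in both jaws. Gdf10 FPKM over Bmp3 FPKM was 5.45 in mutant and 0.0598 in control upper molars. In lower molars it was 4.69 in mutant and 0.228 in control. Such ratios within a library do not move with scaling, and they show unequal change, not which gene changed. The sum of the pair was 7.76 FPKM in mutant and 13.2 FPKM in control upper molars, and 3.68 FPKM in mutant and 10.4 FPKM in control lower molars.

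**Figure D2:**
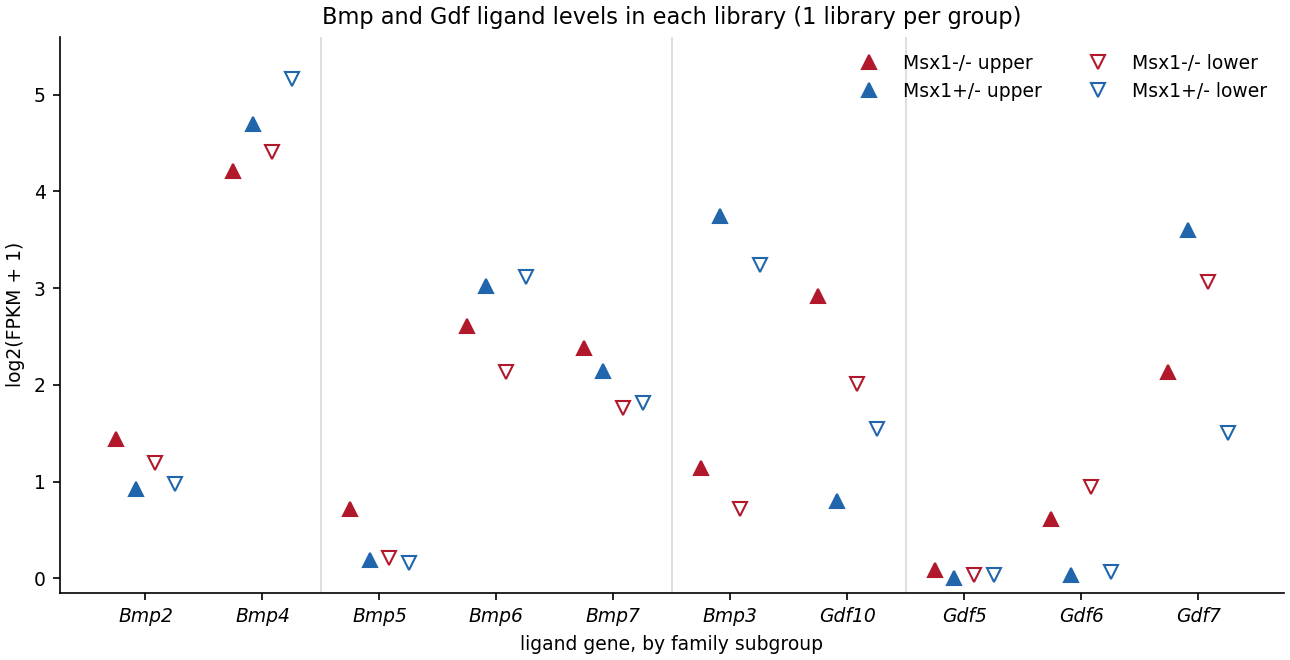
Points give log2(FPKM + 1) of each ligand in each of the 4 libraries; red is Msx1-/-, blue Msx1+/-, filled triangles upper and open triangles lower molars, and grey lines part the family subgroups. Bmp3 is low in both red points (1.20 and 0.647 FPKM) and high in both blue points (12.4 and 8.44 FPKM), whereas Gdf7 is high in Msx1+/- upper (11.1 FPKM) and Msx1-/- lower molars (7.34 FPKM).

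Bmp4, on chromosome 14 from 47003196 to 47010274 (mm9), was the leading ligand in the mutant libraries as in the controls. It had 17.6 FPKM in mutant and 25.0 FPKM in control upper molars. In lower molars it had 20.2 FPKM in mutant and 34.7 FPKM in control. Both mutant values were below both control values as deposited. The differences of -0.48 in upper and -0.75 in lower molars were not called. Relative to the median gene they were -0.45 and -0.36. After each of the 3 rescalings the genotypes overlapped, since mutant lower molars (24.3 FPKM by median of ratios) then stood above control upper molars (24.0 FPKM). Upper minus lower, Bmp4 differed by -0.19 in mutant and -0.46 in control molars.

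Bmp2, the closest relative of Bmp4, was expressed at a low level. It had 1.71 FPKM in mutant and 0.894 FPKM in control upper molars, and 1.28 FPKM in mutant and 0.967 FPKM in control lower molars. The mutant values were above the control values in both jaws, by 0.52 and 0.21, and neither difference was called. Summed, Bmp2 and Bmp4 gave 19.3 FPKM in mutant and 25.9 FPKM in control upper molars, and 21.5 FPKM in mutant and 35.7 FPKM in control lower molars.

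The start regions of Bmp4, the most abundant ligand, and of Gdf7 and Gdf10, which were called in at least 1 jaw, are shown because Msx1 is a homeodomain protein and such proteins recognise sites built on the letters ATTA. Each sequence runs from 250 bases before to 50 bases after the RefSeq transcript start, 5′ to 3′ on the gene's strand, in build GRCm38.p6. ATTA on either strand (TAAT on the printed strand) is in capitals. The windows are chr14:46390620-46390919 on the minus strand for Bmp4, chr12:8301905-8302204 on the minus strand for Gdf7 and chr14:33923337-33923636 on the plus strand for Gdf10.
Bmp4: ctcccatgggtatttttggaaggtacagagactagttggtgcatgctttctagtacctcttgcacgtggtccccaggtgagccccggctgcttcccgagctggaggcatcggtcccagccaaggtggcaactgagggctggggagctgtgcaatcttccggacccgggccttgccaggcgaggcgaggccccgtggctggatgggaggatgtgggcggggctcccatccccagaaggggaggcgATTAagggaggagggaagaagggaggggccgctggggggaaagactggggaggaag
Gdf7: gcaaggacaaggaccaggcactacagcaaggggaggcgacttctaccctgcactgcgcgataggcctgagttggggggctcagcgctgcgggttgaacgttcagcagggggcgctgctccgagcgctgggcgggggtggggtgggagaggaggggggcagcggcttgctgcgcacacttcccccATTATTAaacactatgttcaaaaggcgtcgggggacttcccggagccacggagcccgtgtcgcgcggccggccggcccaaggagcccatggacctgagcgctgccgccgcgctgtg
Gdf10: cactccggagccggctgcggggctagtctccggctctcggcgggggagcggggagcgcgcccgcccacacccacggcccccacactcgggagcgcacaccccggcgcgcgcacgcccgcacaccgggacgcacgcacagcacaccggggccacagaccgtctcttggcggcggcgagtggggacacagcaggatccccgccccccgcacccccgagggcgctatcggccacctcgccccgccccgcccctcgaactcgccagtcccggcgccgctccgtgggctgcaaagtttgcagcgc

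The Bmp4 window held the letters once, 6 bases before the start, and the Gdf7 window held 2 overlapping copies, the first 66 bases before the start. The Gdf10 window held 0. Of the 32851 promoters in the table, 58.0% held ATTA or TAAT, so a match of this kind is common and says nothing of binding. The Gdf10 window was rich in CG pairs, with 42 of them against a median of 7 over all promoters, and 3.03% of promoters held at least as many. GC content was 64% for Bmp4, 68% for Gdf7 and 77.3% for Gdf10, against a median of 52.7%. The promoter collection had entries for 5 of the 10 ligands and none for Bmp3, which is why its start region is not shown. Of the entries not printed, Bmp5 held the letters once, 45 bases before the start. Bmp6 held them 0 times and had 27 CG pairs.

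Bmp6, like Bmp3, had both mutant values below both control values under every scaling tried. It is a ligand of the Bmp5, Bmp6 and Bmp7 subgroup and lies on chromosome 13, 38437585 to 38591597 (mm9). It had 5.12 FPKM in mutant and 7.14 FPKM in control upper molars. In lower molars it had 3.40 FPKM in mutant and 7.70 FPKM in control. The genotypes did not overlap, and the differences of -0.41 in upper and -0.98 in lower molars fell short of the threshold. Relative to the median gene they were -0.38 and -0.60. The end of Bmp6 lies beside Txndc5 on the other strand, a gene at 23.0 to 33.7 FPKM. In the deposited mm9 loci the 2 genes are 0.547 kilobases apart, and in the GENCODE annotation of a later build they overlap. The library protocol is not said to keep strand, so reads from such an overlap could not be told apart. Bmp4 overlaps Gm15217 on the other strand in the same way, also in the deposited loci. Gm15217 was highest in control lower molars, at 0.573 FPKM.

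Bmp7 showed no such shift. It had 4.23 FPKM in mutant and 3.40 FPKM in control upper molars, and 2.39 FPKM in mutant and 2.53 FPKM in control lower molars. The genotypes overlapped, with differences of 0.25 and -0.05, and the lower difference turned positive after each rescaling (0.25 to 0.32). Bmp5, the gene of the mouse short ear mutation, was near absent in 3 of the 4 libraries. It had 0.649 FPKM in mutant and 0.140 FPKM in control upper molars, and 0.155 FPKM in mutant and 0.114 FPKM in control lower molars. Summed, Bmp5, Bmp6 and Bmp7 gave 9.996 FPKM in mutant and 10.7 FPKM in control upper molars, and 5.95 FPKM in mutant and 10.3 FPKM in control lower molars.

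Gdf7 differed between genotypes in opposite directions in the jaws. The gene, known from the roof plate of the neural tube and from tendon, lies on chromosome 12, 8304724 to 8308760 (mm9). It had 3.37 FPKM in mutant and 11.1 FPKM in control upper molars. In lower molars it had 7.34 FPKM in mutant and 1.84 FPKM in control. The genotypes overlapped, because the highest and the lowest value both belonged to control libraries. Upper molars differed by -1.47 and lower molars by 1.55, and both were called. Rescaled, it was between -1.45 and -1.35 in upper and between 1.89 and 1.97 in lower molars. The upper minus the lower genotype difference was -3.02, which ranked 8 from the most negative of 10537 genes. Over all genes 5.6% had a difference of differences of at least 1 and 1.31% of at most -1; among the 7 ligands these were Gdf10 (1.65) and Gdf7. With 1 library per group the difference of differences was not tested.

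Gdf6, which is needed for some joints and skull sutures, was close to the detection limit in the controls and higher in both mutant libraries. It had 0.528 FPKM in mutant and 0.0262 FPKM in control upper molars, and 0.922 FPKM in mutant and 0.0460 FPKM in control lower molars. The FPKM ratio of mutant over control was 20.1 in both jaws. In aligned bases that is 2024 in mutant against 96.9 in control upper molars, and 3008 in mutant against 132 in control lower molars, so the control values rest on very little sequence. The pseudocount makes the log2 differences small, at 0.57 and 0.88. The lower one passed 1 after each rescaling (1.02 to 1.06). Gdf6 is outside all counts because its mean was 0.381 FPKM.

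Gdf5, a marker of developing joints, was listed at 0 FPKM in control upper molars. Elsewhere it had 0.0606 FPKM in mutant upper, 0.0274 FPKM in mutant lower and 0.0207 FPKM in control lower molars. At most 152 aligned bases covered it in a library, so no difference in Gdf5 was detectable at this depth. Some cartilage markers were also higher in the mutant libraries. The 6 listed cartilage genes summed to 14.1 FPKM in mutant and 6.71 FPKM in control upper molars, and to 20.9 FPKM in mutant and 5.54 FPKM in control lower molars. Of that list Acan, Col9a1 and Matn1 were under 0.5 FPKM in every library, Hapln1 was called higher in both jaws, Col2a1 in lower molars alone, and Sox9 in neither. Their part in the Gdf6 values was not tested.

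**Figure D3:**
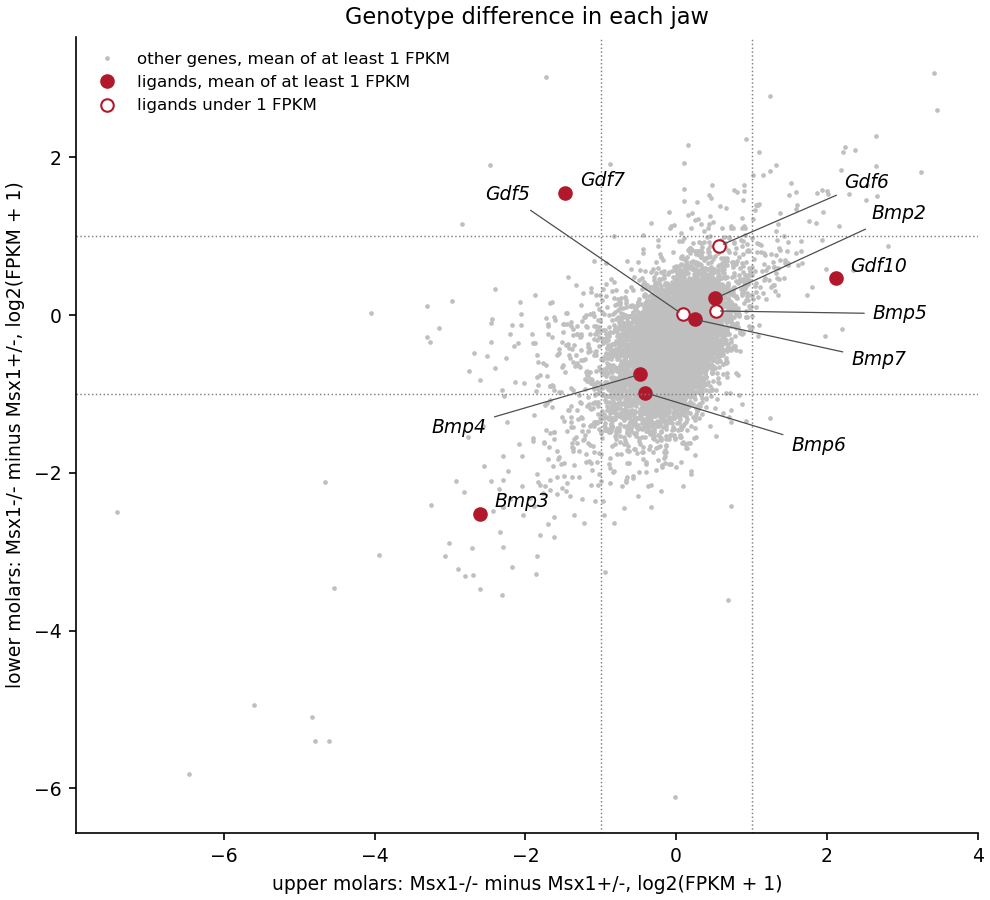
Each point is a gene, with its Msx1-/- minus Msx1+/- difference on the log2(FPKM + 1) scale in upper molars on the x axis and in lower molars on the y axis; grey points are the other genes averaging 1 FPKM or more, red points the ligands (open where under that mean), and dotted lines mark a difference of 1. Bmp3 (-2.61, -2.52) lies low in both jaws, Gdf10 (2.12, 0.46) is high in upper molars, and Gdf7 (-1.47, 1.55) lies in the corner of opposite signs.

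Counted over the 7 ligands with a mean of at least 1 FPKM, 1 was called higher (Gdf10) and 2 lower (Bmp3, Gdf7) in mutant upper molars. Over all genes the shares there were 1.07% higher and 3.26% lower. In mutant lower molars 1 was called higher (Gdf7) and 1 lower (Bmp3), where 0.864% of all genes were higher and 9.43% lower. Called in both jaws in the same direction were 0 ligands higher and 1 lower, against 0.399% and 1.59% of all genes. The median difference of the 7 was -0.41 in upper and -0.05 in lower molars. The members called went in different directions, so these medians describe no shared shift.

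Of all 10 ligands, 5 had both mutant values above both control values and 3 had both below. The 5 were Bmp2, Bmp5, Gdf5, Gdf6 and Gdf10, of which only Bmp2 and Gdf10 passed the mean of 1 FPKM. The 3 were Bmp3, Bmp4 and Bmp6, and Bmp7 and Gdf7 overlapped. Such separation was common over all genes, at 9.52% higher and 41.3% lower. Under the rescalings 2 of the 7 ligands stayed higher (Bmp2, Gdf10) and 2 lower (Bmp3, Bmp6). The shares of all genes were then 20.6% higher and 27.6% lower by median of ratios, 29.1% and 19% by upper quartile, and 26.6% and 21.4% by total. Without the filter on low values they were 11.1% and 25.7%. As deposited, the kept ligands were separated higher in 2 of 7 and lower in 3 of 7, so the lower count is near the share of all genes and the higher one, of 2 genes, is above it. After rescaling both counts are near those shares. In size of mean difference, Bmp3 ranked 24 from the most negative and Gdf10 ranked 39 from the most positive. With 2 libraries per genotype an exact permutation test cannot give a two-sided p below 0.333, so none is given.

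A limma model over all 4 libraries, with jaw as a term, took the jaws as the 2 libraries of each genotype. That left each gene 1 residual degree of freedom, so the SE given here is not a replicate error. It called 2 of the 7 ligands at an adjusted p below 0.05. Bmp3 differed by -2.56 ± 0.29 (SE; limma adjusted p = 2.54e-16), lower in the mutant in both jaws. Gdf10 differed by 1.29 ± 0.27 (SE; limma adjusted p = 0.000101), higher in the mutant in both jaws. The Gdf10 differences behind this were 2.12 in upper and 0.46 in lower molars, and the lower one was not called. Bmp6 stood at -0.70 (limma adjusted p = 0.21), Bmp4 at -0.62 (0.424), Bmp2 at 0.36 (0.471), Bmp7 at 0.10 (0.909) and Gdf7 at 0.04 (0.964). Over all genes 1.19% were called higher and 4.37% lower. At an unadjusted p below 0.05 the ligands were Gdf10 (higher), Bmp3 and Bmp6 (lower), against 2.64% and 13.1% of all genes. The fit gave genes of like level a common spread. The opposite Gdf7 values and the unequal Gdf10 values thus did not widen their own errors. The SE and the small p-values rest on that spread, not on replicates. With a rescaled library size the adjusted p was between 0.00191 and 0.00273 for Bmp3 and between 0.0599 and 0.0777 for Gdf10, so the Gdf10 call was lost. Without the filter on low values limma called 0 genes, and Bmp3 had an adjusted p of 0.491, the highest of a range down to 8.25e-19 over the limma alternatives. In that fit Gdf6 (higher), Bmp3 and Bmp4 (lower) were below an unadjusted p of 0.05, against 3.27% of all genes higher and 4.94% lower.

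**Figure D4:**
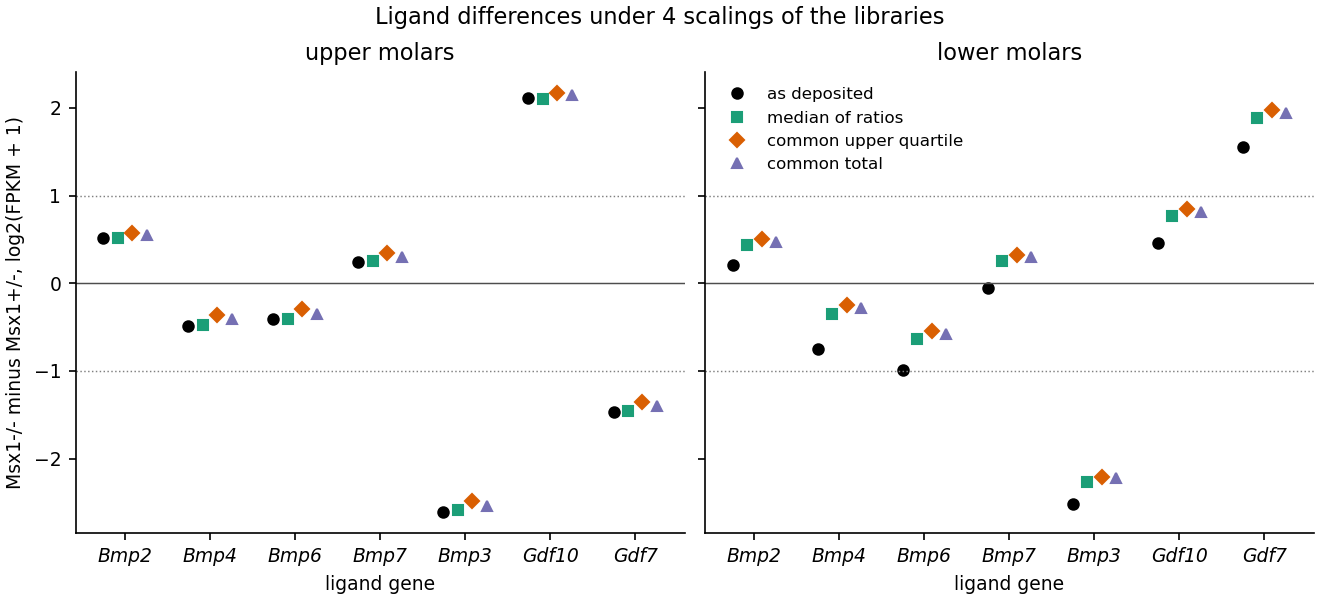
Points give the Msx1-/- minus Msx1+/- difference on the log2(FPKM + 1) scale of the 7 ligands with a mean of at least 1 FPKM, in upper (left) and lower (right) molars, with the libraries as deposited and under 3 rescalings; dotted lines mark a difference of 1. Bmp3 and Gdf7 stay beyond the lines in both panels and Gdf10 in upper molars, while the lower molar values all sit higher after rescaling, Bmp7 moving across 0 to between 0.25 and 0.32.

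Between the jaws, Gdf7 was the single ligand called. These comparisons use the same 4 libraries as those of genotype. In control molars Gdf7 was at 11.1 FPKM in upper and 1.84 FPKM in lower molars, a ratio of 6.02 and a difference of 2.09, upper minus lower. In mutant molars the order was turned, at 3.37 FPKM in upper and 7.34 FPKM in lower molars, and the difference of -0.93 was not called as deposited. It was called under all 3 rescalings (-1.23 to -1.18). Over all genes, 3.22% were called higher and 0.418% lower in mutant upper molars, and 1.48% higher and 0.218% lower in control upper molars. Gdf10 also changed its order, at 6.56 FPKM in upper and 3.03 FPKM in lower mutant molars, against 0.742 FPKM in upper and 1.92 FPKM in lower control molars, with differences of 0.91 and -0.75. The other 5 ligands above the filter differed between the jaws by no more than 0.62 in either genotype.

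The genes whose pattern over the 4 libraries was most like that of a called ligand were found by Euclidean distance between centred log2(FPKM + 1) values. Nearest to Bmp3 was Cbln1, a secreted synapse organiser (distance 0.053), with 0.909 FPKM in mutant and 10.2 FPKM in control upper molars, and 0.446 FPKM in mutant and 7.10 FPKM in control lower molars. Cxxc5 (0.31) and Crtac1 (0.35) followed. Nearest to Gdf10 were the protocadherin gene Pcdh10 (0.14), Chsy3 (0.35) and the ephrin receptor gene Epha4 (0.39). Pcdh10 was at 32.9 FPKM in mutant and 7.56 FPKM in control upper molars, and at 19.6 FPKM in mutant and 12.7 FPKM in control lower molars. Nothing lay as close to Gdf7, whose nearest genes were Znrd1as (0.74), Slx1b (0.78) and Rangrf (0.80). With 4 libraries such likeness is weak evidence of anything shared.

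No gene next to a called ligand on the chromosome passed the threshold in the same direction. Over all genes 1.07% were called higher and 3.26% lower in upper molars, and 0.864% and 9.43% in lower molars. The absence of a call among so few genes thus says little. For Bmp3 the outcome could not have been otherwise. Its neighbours 1700007G11Rik and Prkg2 were under 1 FPKM in every library, too low to be called lower on this scale. The neighbours of Gdf10 were near absent too. Gdf2, another Bmp ligand gene 5.76 kilobases from Gdf10, was listed at 0 in every library. Ptpn20, on the other side, was at 0.0187 FPKM or less. Prkg2, 48.8 kilobases from Bmp3, was at 0.198 FPKM in mutant and 0.639 FPKM in control upper molars. In lower molars it was at 0.164 FPKM in mutant and 0.867 FPKM in control. It was thus lower in the mutant in both jaws, as Bmp3 was, by -0.45 and -0.68. Hs1bp3, 11.5 kilobases from Gdf7, was at 5.08 FPKM in mutant and 3.36 FPKM in control upper molars and at 4.01 FPKM in mutant and 3.65 FPKM in control lower molars. Of the genes flanking Bmp7, the nearer was Spo11, 39.5 kilobases away and at 0.0679 FPKM or less in every library. The farther one, by contrast, differed strongly where Bmp7 did not. This was Tcfap2c, a transcription factor gene 311 kilobases away, singled out after its values were seen, with 4.65 FPKM in mutant and 33.4 FPKM in control upper molars and 1.70 FPKM in mutant and 28.9 FPKM in control lower molars.

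Around the ligands, 6 lists held 66 pathway genes that passed the filter. Called in both jaws were 0 of them higher and 7 lower, where 0.399% of all genes were higher and 1.59% lower. The lists were chosen with earlier results of these data known, so counts set beside those shares are descriptive. Calls in lower molars alone stand beside the median of -0.39 there, so those near -1 are small relative to the median gene. Among 21 further ligands of the superfamily only 6 passed the filter, and 2 of these were lower in both jaws, the activin subunit gene Inhba and Tgfb1. Inhba, at 23.9 FPKM in mutant and 174 FPKM in control upper molars and 28.5 FPKM in mutant and 138 FPKM in control lower molars, was above Bmp4 in every library. Tgfb1 was at 3.17 FPKM in mutant and 12.4 FPKM in control upper molars, and at 2.19 FPKM in mutant and 9.14 FPKM in control lower molars. Tgfb2 and Tgfb3, next in abundance to Inhba, were higher in mutant upper molars (0.54 and 0.39) and lower in mutant lower molars (-0.45 and -0.73) without being called. Of the remaining Bmp and Gdf genes, Bmp10 and Gdf2 were listed at 0 throughout. Bmp8a was listed at 0 in both mutant libraries, against 0.687 FPKM in control upper and 0.618 FPKM in control lower molars.

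Of 10 receptor genes kept, 0 were called in both jaws in the same direction, and their median difference was -0.19 for upper molars and -0.34 for lower molars. The type I receptor gene Bmpr1a was at 15.9 FPKM in mutant and 14.5 FPKM in control upper molars, and at 13.9 FPKM in mutant and 15.9 FPKM in control lower molars. The type II receptor gene Bmpr2 was at 16.3 FPKM in mutant and 28.9 FPKM in control upper molars, and at 14.6 FPKM in mutant and 18.6 FPKM in control lower molars. Neo1, a receptor for the Bmp co-receptors of the Rgm family, was at 24.8 FPKM in mutant and 31.1 FPKM in control upper molars, and at 14.6 FPKM in mutant and 29.7 FPKM in control lower molars. Rgma was called higher in upper molars alone, by 1.21.

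Genes of extracellular Bmp antagonists and modulators had the most positive list medians in upper molars. Of 16 kept, 0 were called in both jaws, with a median of 0.53 in upper and 0.03 in lower molars, where the median gene stood at -0.03 and -0.39. Sostdc1, a secreted Bmp and Wnt inhibitor known from tooth germs, was at 69.4 FPKM in mutant and 41.6 FPKM in control upper molars. In lower molars it was at 20.8 FPKM in mutant and 49.0 FPKM in control, so it was called lower there (-1.20). Smoc2 was called higher in upper molars (1.04), and Bmper lower in lower molars (-1.19). Fstl1 was the most abundant, at 182 FPKM in mutant and 98.7 FPKM in control upper molars and at 145 FPKM in mutant and 122 FPKM in control lower molars.

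Genes for ligand processing, which include the proprotein convertase gene Furin and the chordin-cutting protease gene Bmp1, held 9 kept members with 0 calls in either jaw. Pcolce, Fbn2 and Fbn1 were the most abundant of these. Fbn2, a fibrillin that binds Bmp precursors in the matrix, was at 39.1 FPKM in mutant and 20.1 FPKM in control upper molars, and at 43.3 FPKM in mutant and 26.7 FPKM in control lower molars. Among 10 Smad pathway genes 1 was lower in both jaws. It was Skil, a repressor of Smad signalling that Tgf-beta induces, at 4.29 FPKM in mutant and 14.6 FPKM in control upper molars and 2.49 FPKM in mutant and 11.3 FPKM in control lower molars. Ski, a related repressor and the most abundant of the list, differed by -0.22 and -0.42. Smad1 was at 17.2 FPKM in mutant and 11.4 FPKM in control upper molars, and at 9.15 FPKM in mutant and 12.4 FPKM in control lower molars. Smad5 was called in lower molars alone (-1.11), and the list's median was -0.22 in upper and -0.87 in lower molars.

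Of 19 kept genes known as Bmp targets in some tissue, 4 were lower in both jaws, against 1.59% of all genes. This list too was chosen with earlier results known, and it shares genes with the Smad and antagonist lists. These were Dlx3, Runx2, Lef1 and Hey1, each of which other pathways also control. Dlx3 was at 1.25 FPKM in mutant and 55.6 FPKM in control upper molars, and at 1.97 FPKM in mutant and 11.9 FPKM in control lower molars. Runx2, the osteoblast and tooth regulator, differed by -1.39 and -2.05, and Hey1, a Notch target, by -1.84 and -3.05. Lef1, the nuclear Wnt effector, was at 23.1 FPKM in mutant and 117 FPKM in control upper molars, and at 11.3 FPKM in mutant and 93.5 FPKM in control lower molars. The Id genes, more direct targets, did not move alike. Id4 was called higher in upper molars (1.32, and 0.54 in lower molars), Id1 lower in lower molars (-1.44, and -0.78 in upper molars), and Id2 differed by 0.02 and -0.75. The most abundant, Id3, which encodes an inhibitor of helix-loop-helix factors, was at 66.9 FPKM in mutant and 115 FPKM in control upper molars, and at 43.7 FPKM in mutant and 96.0 FPKM in control lower molars. Its differences were -0.77 and -1.12. The list's median was -0.49 in upper and -0.93 in lower molars, below the median gene in both. The list includes Msx1 itself.

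**Figure D5:**
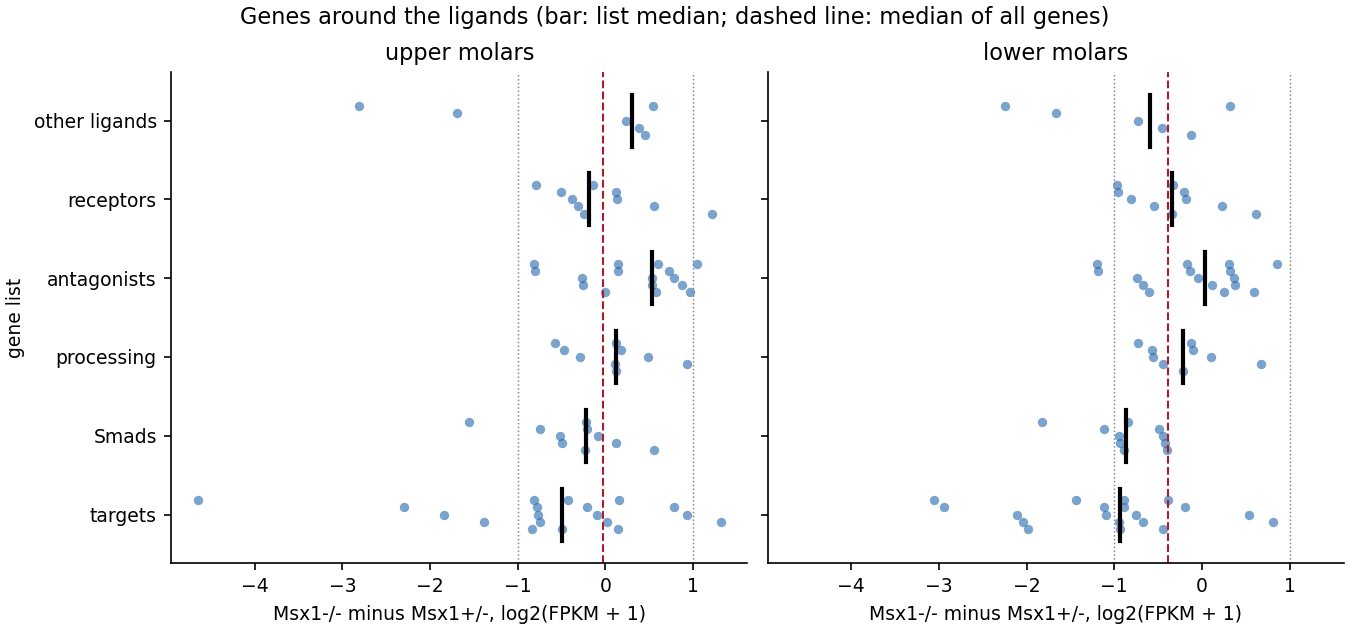
Each point is a pathway gene with a mean of at least 1 FPKM, placed by its Msx1-/- minus Msx1+/- difference on the log2(FPKM + 1) scale in upper (left) and lower (right) molars; black bars are list medians, the dashed line is the median of all genes and dotted lines mark a difference of 1. Targets have the lowest medians (-0.49 and -0.93), and no antagonist or receptor gene passes the lines in the same direction in both panels.

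Genes of cells that border the mesenchyme were also read. The 6 enamel knot markers, Shh and Fgf4 among them, were all under 0.5 FPKM in every library, with a summed level of 0.248 FPKM in mutant and 0.313 FPKM in control upper molars and 0.368 FPKM in mutant and 0.399 FPKM in control lower molars. Bmp2 was at 0.894 to 1.71 FPKM and Bmp7 at 2.39 to 4.23 FPKM in the same libraries. Any link of these levels to the enamel knot was not tested. The 11 dental epithelium markers summed to 50.3 FPKM in mutant and 28.6 FPKM in control upper molars, and to 71.6 FPKM in mutant and 45.3 FPKM in control lower molars. Of the 7 kept, 2 were called higher in upper molars (Krt5, Krt15), 2 in lower molars (Krt15, Perp) and 1 in both. Over all genes the shares called higher were 1.07% in upper molars, 0.864% in lower molars and 0.399% in both. Cdh1 and Krt8 were under 0.5 FPKM in every library. Of the 6 pericyte and smooth muscle markers, Pdgfrb had a failed estimate. The other 5 summed to 24.8 FPKM in mutant and 19.2 FPKM in control upper molars, and to 10.1 FPKM in mutant and 22.7 FPKM in control lower molars. With Pdgfrb the sums were 41.7 FPKM in mutant and 57.1 FPKM in control upper molars, so the upper direction turned on that gene, and 19.9 FPKM in mutant and 65.4 FPKM in control lower molars. Members of the list differed in direction in upper molars, at 2.20 for Acta2, -0.88 for Rgs5 and -0.85 for Tagln. The part of these cells in the ligand values was not tested.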

How the data were processed

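RNA of 4 libraries, 1 per genotype and jaw, was analysed from the deposited tables. Per the labels' protocols, laser-captured tissue was extracted with a column kit and amplified cDNA came from a NuGEN Ovation v2 kit. The build mm9 and the tools Bowtie 0.12.7 and TopHat 1.4.1 are named, per the submitters' processing notes. Per the file headers, the authors deposited FPKM and coverage (a signal, the mean read depth per base) for 28107 RefSeq entries; the columns are those of Cufflinks (version: not given in the sources). Read counts were not recovered, so counting intervals are not given.

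FPKM was summed per gene name. Genes with a failed estimate (66) and small RNA names (716) were left out, then genes under a mean of 1 FPKM, leaving 10537. Differences are of log2(FPKM + 1), which understates changes of low genes; a call needs a difference of at least 1. Limma 3.58.1 in R 4.3.3 (trend, Benjamini-Hochberg over all kept genes) gave the tests. It was also run on simulated data with equal noise in every library and equal changes in both jaws. Those data held no library-wide shift and no difference between jaws, so they do not check the p-values given here. The Gdf and Bmp genes, lists and likeness rule were chosen with earlier results of these data known. Named beyond the ligands were list members called in both jaws, the 3 most abundant of each list, and the 3 genes nearest each called ligand; others were chosen after their values were seen. Alternatives were pseudocounts of 0.1 and 5, 3 rescalings, the top transcript, no filter, a mean of 5 FPKM, a stricter separation of genotypes, and limma without trend or without the jaw term. Promoters are from RefSeq (GRCm38.p6) and were not placed on mm9.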

Additional observations from a re-analysis of the deposited data

Results flagged for a closer look

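The genotype difference of Gdf7, upper molars minus lower molars, was -3.02 on the log2(FPKM + 1) scale. It stood out because the mutant was lower in upper molars (-1.47) and higher in lower molars (1.55). The difference between the jaws was not tested, since each group has 1 library.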

How the results depend on the processing

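Counts of called ligands moved with 5 kinds of setting. With a pseudocount of 0.1, 2 ligands were lower in lower molars (Bmp6 joined at -1.16), where 16.2% of all genes were. In the jaw comparisons 1 was then higher in mutant upper molars (Gdf10, 1.09, against 7.49% of all genes) and 1 lower there (Gdf7, -1.10, against 0.835%). In control upper molars 1 was lower (Gdf10, -1.27, against 0.845%). Of the 66 pathway genes 1 was then higher in both jaws, against 0.826% of all genes. With a pseudocount of 5, 1 ligand was lower in upper molars and 0 higher in lower molars, because Gdf7 fell short (-0.94 and 0.85), and 0 had a more positive genotype difference in upper molars; the shares of all genes were 1.34%, 0.275% and 1.34%. Under each of the 3 rescalings 1 ligand (Gdf7) was lower in mutant upper than in mutant lower molars (0.882% to 0.977% of all genes), and limma called 1 ligand (Bmp3; 2.45% to 2.81%). With a common upper quartile 3 pathway genes, and with a common total 1, were higher in both jaws. The shares of all genes were 0.816% and 0.730%. With no filter limma called 0 ligands, and at a minimum mean of 5 FPKM it called 1 (5.04% of genes); there 0 ligands were higher in upper molars (1.03%) and 0 had a more positive genotype difference there (7.67%), since Gdf10 did not pass that filter. The cause was not tested where the setting's own construction does not show it. The count of ligands lower in both jaws stayed at 1 in all of these settings. Leaving out the jaw term (no replicate block) kept the count of limma calls at 2. The jaw term pairs mutant with control within a jaw. No paired analysis was possible by replicate number, because each group is 1 library, and none could be left out. Gdf5, Gdf6 and Bmp5 rest on little sequence.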
